A study of Mus musculus with 9 samples.

Results

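Pitx1, Pitx3, Msc, Tcf21, Isl1 and Lhx2 are transcription factor genes known from the embryonic development of head muscles and of the limbs. They were chosen by name, and all 6 were measured on the array among the 22180 genes that a probe set of a single named gene represents. Their levels were compared across 9 muscles, each on 1 GeneChip Mouse Gene 2.0 ST array, from 12-week-old C57BL/6J males. Head muscles were the jaw-closing masseter and the jaw-opening digastric (n = 2). Trunk and limb muscles (n = 7) were those of the hindlimb, namely soleus, gastrocnemius, tibialis anterior and rectus femoris (n = 4), and those of the shoulder and forelimb, namely trapezius, supraspinatus and triceps (n = 3). The labels name the muscle, and the regions follow general anatomy. All animals were of the same inbred strain, without treatment in the labels, and the labels do not say how many animals an array stands for. The replicates of a region are therefore different muscles, so that each SD below mixes differences between muscles, animals and arrays.

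Head muscles form from pharyngeal and cranial mesoderm rather than from the somites that give rise to trunk and limb muscles, and they use another set of regulators ahead of the shared myogenic factors. In mouse embryos, the basic helix-loop-helix repressors Msc (musculin, or MyoR) and Tcf21 (capsulin) are together required for the masseter and other jaw-closing muscles of the first arch. The LIM homeodomain factors Isl1 and Lhx2 mark or act in pharyngeal mesoderm, Isl1 also in motor neurons and in the early hindlimb bud, and Lhx2 also in eye and hair follicle. The Pitx genes encode paired-type homeodomain factors. Pitx1 gives the hindlimb its identity, upstream of Tbx4, and Pitx3 is known from lens, midbrain dopamine neurons and differentiating skeletal muscle.

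The start regions of 2 members are shown because they hold the short DNA letters that factors of these families bind. Factors of the Msc and Tcf21 type bind the E-box, written CANNTG, and Pitx factors bind TAATCC. The RefSeq promoter table (GRCm38.p6) held 5 windows for 4 of the 6 members, each of 300 bases, from 250 bases before to 50 after a gene start. It held none for Pitx1 and Msc. The window of Pitx3 (chr19:46148276-46148575, minus strand) and that of Isl1 (chr13:116309639-116309938, minus strand) are given 5′ to 3′, with E-boxes and TAATCC in capitals.
Pitx3: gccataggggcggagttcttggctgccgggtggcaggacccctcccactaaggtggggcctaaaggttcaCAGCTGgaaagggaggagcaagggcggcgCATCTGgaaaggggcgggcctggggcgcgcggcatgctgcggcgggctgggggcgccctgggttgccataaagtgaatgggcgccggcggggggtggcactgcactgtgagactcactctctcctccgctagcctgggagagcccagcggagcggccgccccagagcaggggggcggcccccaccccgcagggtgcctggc
Isl1: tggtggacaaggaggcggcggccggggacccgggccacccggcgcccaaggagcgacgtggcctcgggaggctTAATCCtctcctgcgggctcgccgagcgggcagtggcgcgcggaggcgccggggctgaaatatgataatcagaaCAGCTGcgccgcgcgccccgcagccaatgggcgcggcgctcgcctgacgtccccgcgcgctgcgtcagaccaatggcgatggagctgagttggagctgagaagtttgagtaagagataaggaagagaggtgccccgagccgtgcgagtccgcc
Both windows held the E-box form CAGCTG, at position -180 relative to the gene start in Pitx3 and at -103 in Isl1. Both strands were searched, and CAGCTG is counted among the CANNTG matches too. Pitx3 had a further E-box at -151, and Isl1 had a TAATCC at -177. Of 32841 windows of the same length, 72.3% held a CANNTG, 16.3% a CAGCTG and 7.06% a TAATCC. Of the 2 Lhx2 windows 1 had a CANNTG, and the Tcf21 window had 0. A match is a description of the letters only.

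Against that embryonic background, no member was called between head and trunk and limb muscles of the adult. In the limma fit over all genes 0 of the 6 passed at an adjusted p under 0.05, where 0% of all genes passed, and 2 of the 6, Pitx1 and Msc, had an unadjusted p under 0.05, where 11.1% of all genes had one. Both were lower in head, as were 4.80% of all genes at that limit, while 6.32% were higher in head. For 4 members the head mean was the lower (Pitx1, Msc, Tcf21 and Isl1) and for 2 the higher (Pitx3 and Lhx2). The median of the 6 differences, head minus trunk and limb, was -0.25 on the log2 scale, beside -0.04 over all genes. Both head arrays lay below all 7 others for 2 members, again Pitx1 and Msc, where 6.00% of all genes did. Both lay above all 7 others for 0 members, where 6.28% of all genes did.

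How far the values stand above background bears on each of them, since no detection calls were used. As a yardstick, the 95th percentile of 1394 olfactory and vomeronasal receptor genes, which serve mainly sensory neurons, was taken on each array. It lay at 3.35 and 3.40 in the head arrays and between 3.25 and 3.60 in the others. Probe sets differ in how they bind, so the yardstick is no detection limit. Pitx3, Msc and Lhx2 were above it on all 9 arrays, Pitx1 on 8, Isl1 on 1 and Tcf21 on 0. In RNA of whole muscle, fewer cells that use a gene and less of its RNA per cell cannot be told apart. As a check of the labelled tissue, all 9 listed myofibre genes were above the yardstick on every array.

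**Figure D1:**
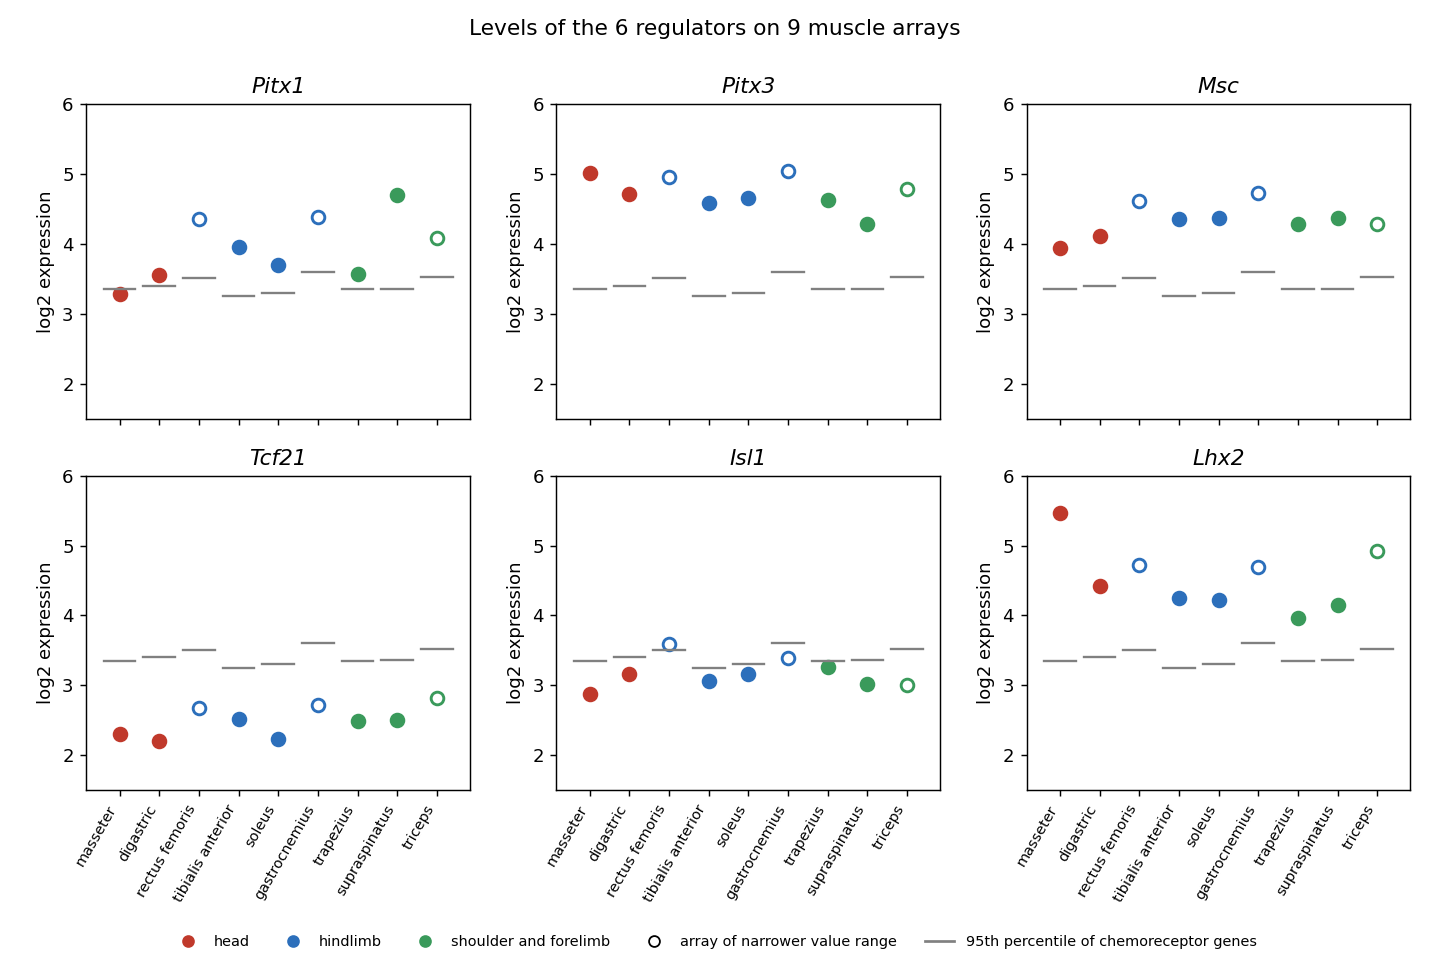
Log2 expression of each of the 6 genes (vertical axes) on the 9 muscle arrays, with head in red, hindlimb in blue and shoulder and forelimb in green; open symbols are the 3 arrays of narrower value range and grey bars the yardstick of each array. Pitx1 and Msc are lower in both head arrays than in all others, Lhx2 is highest in masseter at 5.47, and Tcf21 lies under the yardstick throughout.

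The arrays also fall into 2 sets by their value range. The SD over all probe sets was between 1.92 and 1.96 in triceps, rectus femoris and gastrocnemius and between 2.03 and 2.08 in the other 6 arrays. Dim probe sets read higher on those 3 arrays, with chemoreceptor medians from 1.62 to 1.80, against 1.42 to 1.55 on the 6 of wider range. Both head arrays are among the 6. Among the 7 trunk and limb arrays, the 3 of narrower range were above the 4 of wider range for 3 of the 6 members, Pitx3, Tcf21 and Lhx2, where 11.4% of all genes showed this order. Differences against the 4 trunk and limb arrays of wider range alone are therefore given beside those against all 7. With only the arrays of wider range, the unadjusted limma p was 0.105 for Pitx1, 0.044 for Msc and 0.024 for Lhx2. In that fit 1893 of 22180 genes were under 0.05. With the value range as a term, these p-values were 0.075, 0.048 and 0.010 (limma), and 1797 genes were under 0.05. Lhx2 was higher in head in both fits, and no member passed after adjustment.

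Pitx1, the hindlimb identity factor, had the lowest values in the head. It was at 3.29 in masseter and 3.55 in digastric. In hindlimb muscles it was at 4.35 in rectus femoris, 3.96 in tibialis anterior, 3.70 in soleus and 4.39 in gastrocnemius, and in shoulder and forelimb muscles at 3.57 in trapezius, 4.70 in supraspinatus and 4.08 in triceps. Head and other arrays did not overlap, but the digastric lay only just under the trapezius, and the masseter value was under the yardstick. The head mean was 3.42 ± 0.19 (SD, n = 2) and that of the other muscles 4.11 ± 0.40 (SD, n = 7). The difference of -0.69 (SE 0.28, 95% interval -1.31 to -0.07) did not pass (limma, adjusted p = 0.428), and corresponds to a level 1.62-fold higher in trunk and limb muscles. Against the trunk and limb arrays of wider range it was -0.57.

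Hindlimb muscles did not stand above shoulder and forelimb muscles for Pitx1. It averaged 4.10 ± 0.33 in the hindlimb (SD, n = 4) and 4.12 ± 0.56 in shoulder and forelimb (SD, n = 3), a difference of -0.02 (95% interval -0.60 to 0.57, limma, adjusted p = 1.0). The interval leaves room for a change of up to about 0.6 on the log2 scale either way. The supraspinatus, a shoulder muscle, had the highest value of all 9 arrays, and without it the hindlimb mean was the higher by 0.27. Tbx4, which acts downstream of Pitx1 in the hindlimb bud, averaged 4.29 ± 0.22 (SD, n = 4) in hindlimb and 4.02 ± 0.03 (SD, n = 3) in shoulder and forelimb muscles, and did not pass (limma, adjusted p = 1.0). Tbx5, its forelimb counterpart, averaged 3.25 ± 0.53 in hindlimb and 3.40 ± 0.49 in shoulder and forelimb muscles, and did not pass either (limma, adjusted p = 1.0). Tbx5 was above the yardstick on only 4 of the 9 arrays, so that a difference could be missed. Between these regions 0 of the 6 members passed, as against 0.00451% of all genes, which is Hoxc10 alone, and 0 had an unadjusted p under 0.05, as against 3.65%. For 0 members did all 4 hindlimb arrays lie above all 3 others, or all below, as they did for 2.32% and 2.30% of all genes.

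Pitx3, the member of the family known from differentiated myofibres, was above the yardstick everywhere and spanned 0.76 on the log2 scale. It was at 5.02 in masseter and 4.72 in digastric. The hindlimb values were 4.96 in rectus femoris, 4.58 in tibialis anterior, 4.66 in soleus and 5.05 in gastrocnemius, and the shoulder and forelimb values 4.62 in trapezius, 4.29 in supraspinatus and 4.79 in triceps. The head values fell inside the range of the others. With 4.87 ± 0.22 (SD, n = 2) in head and 4.71 ± 0.25 (SD, n = 7) in trunk and limb muscles, the difference was 0.16 (95% interval -0.26 to 0.58, limma, adjusted p = 0.757). It was 0.33 against the trunk and limb arrays of wider range, which read 4.29 to 4.66. Pitx3 and Pitx1 thus differed in order between muscles, with the supraspinatus the lowest array for Pitx3 and the highest for Pitx1.

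Msc, a repressor of myogenic factors, had lower values in the head on the probe set with the higher mean. It was at 3.94 in masseter and 4.11 in digastric. In hindlimb muscles it was at 4.61 in rectus femoris, 4.36 in tibialis anterior, 4.37 in soleus and 4.73 in gastrocnemius, and in shoulder and forelimb muscles at 4.29 in trapezius, 4.37 in supraspinatus and 4.28 in triceps. No trunk or limb array reached down to the head values. The means were 4.03 ± 0.12 (SD, n = 2) in head and 4.43 ± 0.17 (SD, n = 7) in trunk and limb muscles, and the difference of -0.40 (SE 0.15, 95% interval -0.74 to -0.07) did not pass (limma, adjusted p = 0.420). Against the arrays of wider range it was -0.32.

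The second probe set of Msc did not show the same order. It read 3.68 in masseter and 3.36 in digastric, against 3.32 to 3.87 in the 7 others, so that the groups overlapped. Its means were 3.52 ± 0.23 (SD, n = 2) in head and 3.63 ± 0.20 (SD, n = 7) in trunk and limb muscles, a difference of -0.11 (95% interval -0.53 to 0.31). This probe set was above the yardstick on 6 arrays only. The average of both probe sets differed by -0.26 (limma, adjusted p = 0.480). The difference of Msc thus rests on 1 of its 2 probe sets.

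**Figure D2:**
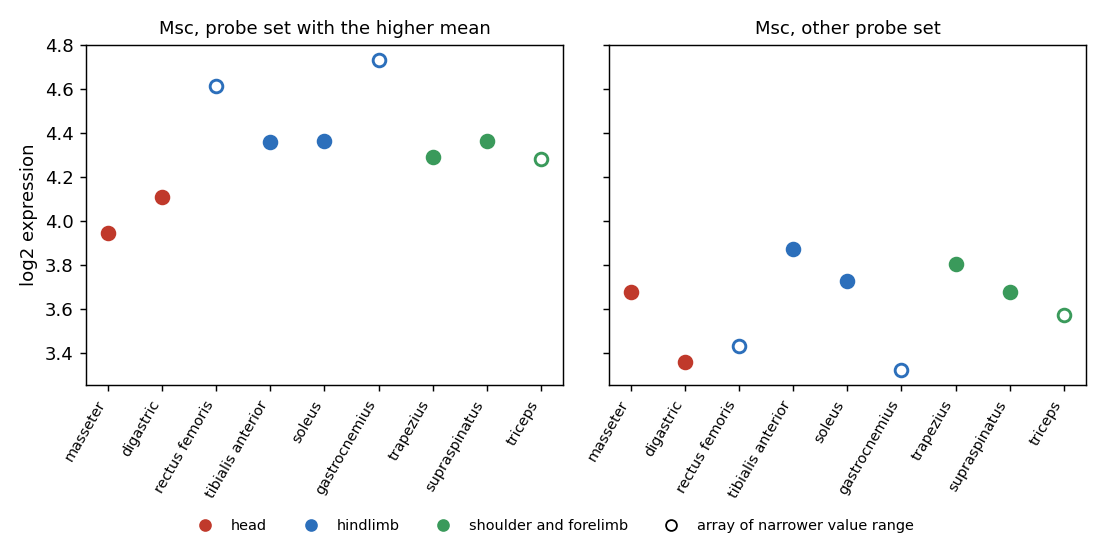
Log2 expression of the 2 Msc probe sets on the 9 arrays, with the probe set of higher mean on the left and the other on the right, and symbols as in the plot of all members. On the left both head arrays are below the 7 others, while on the right masseter (3.68) and digastric (3.36) fall among them.

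Tcf21, the partner of Msc in the first arch and a gene of fibroblast-like cells in many adult organs, was dim in every muscle. It read 2.31 in masseter and 2.21 in digastric. The hindlimb values were 2.67 in rectus femoris, 2.52 in tibialis anterior, 2.24 in soleus and 2.72 in gastrocnemius, and the shoulder and forelimb values 2.48 in trapezius, 2.50 in supraspinatus and 2.82 in triceps. All lay from 0.70 to 1.19 under the yardstick of their array, and the soleus fell between the head values. The difference between 2.26 ± 0.07 (SD, n = 2) in head and 2.57 ± 0.19 (SD, n = 7) in trunk and limb muscles was -0.31 (95% interval -0.69 to 0.07, limma, adjusted p = 0.515). It was -0.18 against the arrays of wider range.

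Isl1, the LIM homeodomain factor of pharyngeal mesoderm, was near the yardstick and passed it in rectus femoris alone. It read 2.88 in masseter and 3.16 in digastric. The hindlimb values were 3.59 in rectus femoris, 3.06 in tibialis anterior, 3.17 in soleus and 3.39 in gastrocnemius, and the shoulder and forelimb values 3.27 in trapezius, 3.02 in supraspinatus and 3.0 in triceps. The masseter was the lowest array and the digastric lay among the others. The means were 3.02 ± 0.19 (SD, n = 2) in head and 3.21 ± 0.22 (SD, n = 7) in trunk and limb muscles, with a difference of -0.20 (95% interval -0.59 to 0.19, limma, adjusted p = 0.680). Against the trunk and limb arrays of wider range it was -0.11. The trapezius, a neck and shoulder muscle whose precursors in the mouse embryo come from an Isl1 lineage, was under its yardstick by 0.08. Between 3.30 ± 0.23 (SD, n = 4) in hindlimb and 3.10 ± 0.15 (SD, n = 3) in shoulder and forelimb muscles the difference was 0.20 (95% interval -0.17 to 0.58, limma, adjusted p = 1.0). With only arrays of wider range, hindlimb minus shoulder and forelimb was -0.03.

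Lhx2 had its highest value in the masseter, and the head muscles differed from each other more than their mean differed from that of the others. It was at 5.47 in masseter and 4.42 in digastric, 1.05 apart. The hindlimb values were 4.73 in rectus femoris, 4.25 in tibialis anterior, 4.22 in soleus and 4.70 in gastrocnemius, and the shoulder and forelimb values 3.96 in trapezius, 4.15 in supraspinatus and 4.92 in triceps. The masseter stood 0.54 above the next array, the triceps, and the digastric fell inside the range of the others. Masseter was the highest array for 11.8% of all genes. The trapezius was lowest.

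The head mean of Lhx2 was 4.94 ± 0.74 (SD, n = 2) and that of trunk and limb muscles 4.42 ± 0.36 (SD, n = 7). The difference of 0.52 (SE 0.31, 95% interval -0.16 to 1.21) did not pass (limma, adjusted p = 0.534). It was 0.00 without the masseter and 1.05 without the digastric, and 0.80 against the arrays of wider range, which read 3.96 to 4.25. Hindlimb arrays averaged 4.47 ± 0.28 (SD, n = 4) and shoulder and forelimb arrays 4.35 ± 0.51 (SD, n = 3). That difference of 0.13 did not pass (limma, adjusted p = 1.0).

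**Figure D3:**
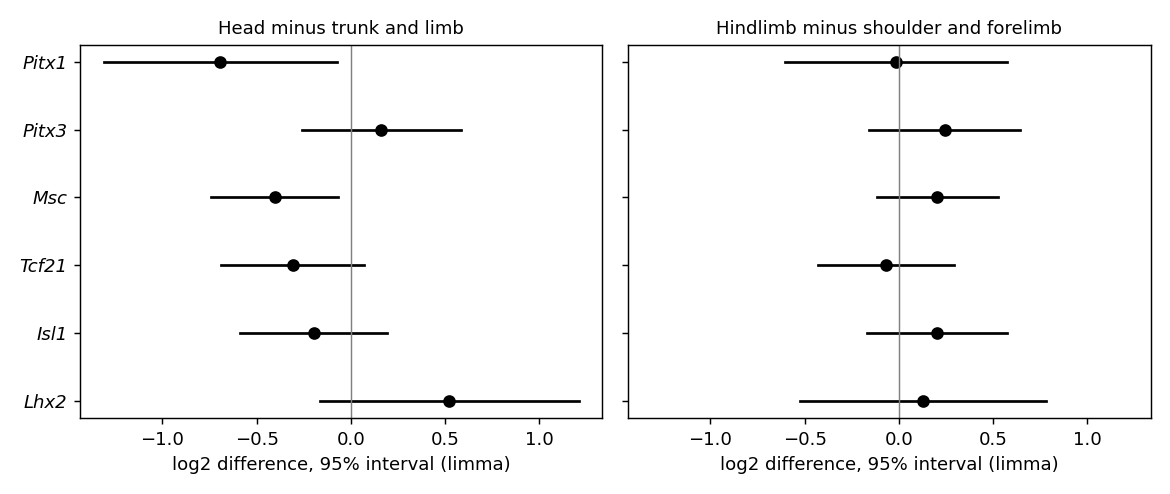
Log2 differences of the 6 genes (points) with 95% intervals from limma (bars), for head minus trunk and limb muscles on the left and hindlimb minus shoulder and forelimb muscles on the right. The intervals of Pitx1 and Msc exclude 0 on the left before adjustment for all genes, and all 6 include it on the right.

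Markers of other cells and structures were compared between head and other arrays too, and their part in the values above was not tested. No marker passed the limma test, the sums were not tested, and the counts below give the sign of the mean difference only. Of all genes, 43.7% had a positive difference, so that most genes were lower in head, markers or not. The sums of head and other arrays did not overlap for salivary, myeloid and slow fibre markers, and overlapped for the others. Of 10 salivary gland markers 7 were higher in head and the summed level was 7.09 to 8.10 in head against 6.49 to 7.01 in trunk and limb arrays, with Klk1, a salivary kallikrein, at 7.28 in masseter and 0.91 in digastric. Of these 10 markers 3 were under the yardstick on every array. All 6 myeloid markers were lower in head, with sums of 7.76 to 8.33 in head and 8.36 to 9.47 in trunk and limb arrays. Fibroblast and fibro-adipogenic markers were lower in head for 7 of 10, with sums of 11.87 to 12.17 in head and 12.01 to 12.60 in trunk and limb arrays. Endothelial markers were higher in head for 7 of 8, with sums of 10.37 to 10.60 in head and 9.40 to 10.61 elsewhere. All 7 measured Schwann cell and nerve markers were lower in head, with sums of 7.31 to 7.59 in head and 7.46 to 8.11 elsewhere. Of these 7 markers 3 were under the yardstick on every array. White adipocyte markers were lower in head for 6 of 7, with sums of 9.18 to 9.20 in head and 8.31 to 11.11 elsewhere. Cartilage and bone markers were lower for 6 of 7, with sums of 6.38 to 6.64 in head and 6.37 to 7.86 elsewhere, and tendon markers were lower for 6 of 8. B cell markers were lower for 4 of 6 and smooth muscle and pericyte markers for 3 of 7. Satellite cell markers were lower for 6 of 9, with sums of 8.05 to 8.43 in head and 8.32 to 8.66 elsewhere. All 6 slow fibre genes were lower in head, with sums of 6.61 to 6.75 in head and 7.12 to 13.19 elsewhere. Of 8 keratinocyte and hair follicle markers, relevant to Lhx2, 4 were under the yardstick on every array, and the sums were 6.94 to 7.0 in head and 6.97 to 7.26 elsewhere.

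The wider set of regulators around the members was counted by list. In 6 lists of related genes, 0 genes passed the limma test between head and trunk and limb muscles, as did 0% of all genes, and 43.7% of all genes had a positive difference. At an unadjusted p under 0.05 in limma, 6.32% of all genes were higher in head and 4.80% lower. Of 20 pharyngeal and head muscle regulators 17 were measured, 9 with a positive and 8 with a negative difference, 1 and 2 of them at an unadjusted p under 0.05. Tbx1, a pharyngeal mesoderm factor, was at 8.0 ± 0.30 in head (SD, n = 2) and 6.99 ± 0.93 in trunk and limb muscles (SD, n = 7), a difference of 1.01 (limma, adjusted p = 0.525). Eya1, a transcriptional coactivator, differed by 0.42 (limma, adjusted p = 0.447). Nkx2-5, known from heart and pharyngeal progenitors, read 4.43 (masseter) and 3.94 (digastric), below the 4.51 to 5.31 of all others, with a difference of -0.70 (limma, adjusted p = 0.393).

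Among 16 measured of 21 genes of jaw and neural crest patterning, 3 differences were positive and 13 negative, with a median of -0.28. Those at an unadjusted p under 0.05 were Edn1, the jaw patterning ligand endothelin-1 (0.71), on the higher side and the jaw identity homeobox genes Dlx2 (-0.45) and Dlx5 (-0.55) on the lower side, each with an adjusted p from 0.405 to 0.424 in limma. Dlx5 was under the yardstick on all 9 arrays, Edn1 on 3 and Dlx2 on 0. Edn1 was highest in digastric (4.51), soleus (4.37) and masseter (4.11), so that head and other arrays overlapped. These arrays also had the highest endothelial marker sums, and a link was not tested. The 22 LIM homeobox genes and cofactors, Isl1 and Lhx2 among them, had 7 positive and 15 negative differences, a median of -0.12 and 0 at an unadjusted p under 0.05. Ldb1, the cofactor that LIM homeodomain proteins bind, was even across groups, at 6.98 ± 0.10 in head (SD, n = 2) and 7.01 ± 0.10 elsewhere (SD, n = 7). Of 16 helix-loop-helix partners and Id genes, 4 were positive and 12 negative, with a median of -0.20 and 1, Id4, at an unadjusted p under 0.05. The E proteins Tcf4 and Tcf12, with which Msc and Tcf21 pair, differed by 0.39 each (limma, adjusted p = 0.522 and 0.600), and the inhibitor Id4 by -0.55 (limma, adjusted p = 0.431).

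The list of genes that act in trunk and limb precursors also held shared myogenic factors, such as Myog. Its genes were as often positive as negative, 7 of 14 each, with a median of -0.06. At an unadjusted p under 0.05, 3 of them were lower in head (Lbx1, Myog and Pax7) and 0 higher. Lbx1, a factor of migrating limb precursors, had the widest gap of this list, with 3.71 (masseter) and 4.83 (digastric), against 5.47 to 6.68 in the 7 others (difference -1.78, SE 0.32, limma, adjusted p = 0.224). Myog, a differentiation factor, differed by -0.76 (limma, adjusted p = 0.408). Of 12 limb identity genes 10 had negative differences, with a median of -0.40. In this list 7 of the 12 had an unadjusted p under 0.05, the Hox genes Hoxc10, Hoxc11, Hoxa10, Hoxd10 and Hoxc4 on the lower side and Irx3 and Irx5 on the higher side. Hoxc11 was above the yardstick on 4 arrays and Hoxc10 and Hoxa10 on 6, with both head arrays under it. Hoxd10, Hoxc4, Irx3 and Irx5 were above it on all 9. Hoxc10, a gene of posterior body position, read 3.06 (masseter) and 3.30 (digastric), against 6.85 to 7.84 in hindlimb and 3.22 to 4.14 in shoulder and forelimb muscles. Its difference between head and all others was -2.46 (limma, adjusted p = 0.0649). On the other side, the Iroquois homeobox gene Irx5 was at 6.01 in masseter, 4.92 in digastric and 5.65 in trapezius, against 3.58 to 4.40 on the remaining 6 arrays, a difference of 1.12 between head and all others (limma, adjusted p = 0.427).

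**Figure D4:**
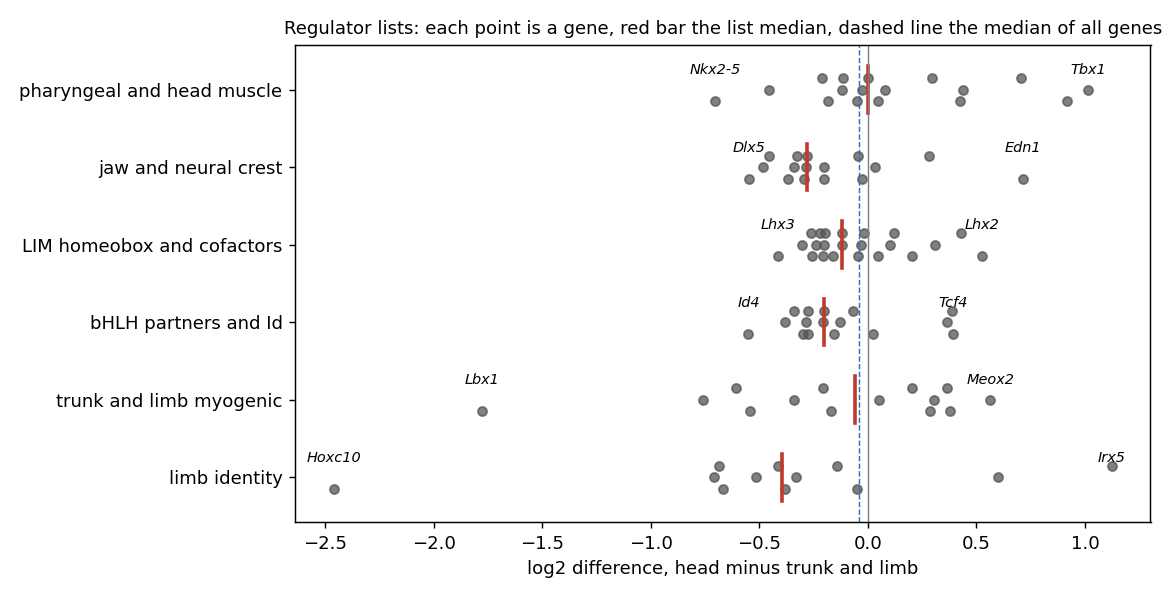
Log2 differences, head minus trunk and limb muscles, of the measured genes of 6 regulator lists (points), with list medians in red, the median of all genes (-0.04) dashed, and the lowest and highest gene of each list named. No point passes the limma test, and the widest differences are those of Hoxc10 (-2.46) and Lbx1 (-1.78) on the lower side and Irx5 (1.12) on the higher.

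The genes most like a member across the 9 arrays were sought for Pitx1 and Lhx2, whose values spanned at least 1 on the log2 scale. They were sought among 4731 genes that did so too and were above the yardstick on any array. The values share their arrays, so that the value range of an array and the RNA of a muscle bear on all genes alike. Most like Pitx1 were Tph1, a tryptophan hydroxylase (Pearson r = 0.978), the cadherin gene Cdh6 (0.968) and Osgin1, a gene of the oxidative stress response (0.942). Of the 4731 genes, 4 had an r over 0.9 with Pitx1. Tph1 was at 2.38 and 2.49 in the head arrays and at 2.71 to 3.65 in the others. It was above the yardstick in supraspinatus only, the array where Pitx1 was highest. Most like Lhx2 were the homeobox gene Hlx (0.907), A2ml1, a protease inhibitor gene (0.889) that was above the yardstick in masseter only, and Dcpp3 (0.869), a member of the demilune cell and parotid protein family of salivary glands. Tph1 and A2ml1 thus entered the search only through the array where their member was highest. Their likeness rests largely on values under the yardstick and is no support for a link. Dcpp3 read 5.12 (masseter) and 3.82 (digastric), against 2.91 to 4.74 in the others. Hlx, at 6.34 in masseter and 5.60 in digastric, was at 6.35 in triceps and 5.34 to 6.14 in the remaining 6.

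**Figure D5:**
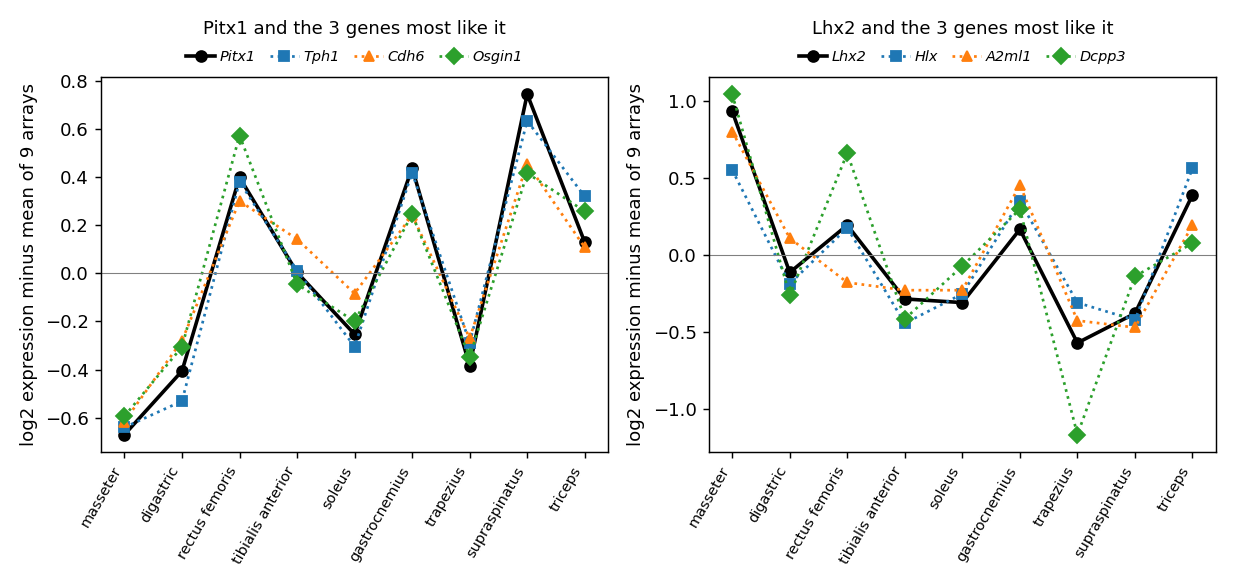
Log2 expression minus the mean of the 9 arrays, by muscle, for Pitx1 (left) and Lhx2 (right) in black and for the 3 genes most like each in colour; lines only guide the eye. Pitx1 and its 3 genes are lowest in masseter, and Lhx2, A2ml1 and Dcpp3 are highest there. Tph1 is above the yardstick in supraspinatus only and A2ml1 in masseter only.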

How the data were processed

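Biotin-labelled cDNA from total RNA of each muscle was hybridised to whole-transcript arrays, 1 per muscle, per the labels' protocols. The deposited values are on a log2 scale, as their range shows. Per the submitters' processing notes they come from GCRMA (version not stated), a method with background correction from probe sequence and normalization across arrays. Background correction can compress differences of dim genes, and precision is limited by how few arrays there are.

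Of 41345 probe sets, 23521 had 1 gene in the array's gene table, 1814 several and 16010 none. Of these, 23328 took their current symbol from the GRCm38.p6 table by Entrez identifier. A gene with several probe sets (1082 genes) was represented by that of highest mean. Probe positions are not given, as the array's build is not stated.

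The 9 arrays were fitted together, 1 mean per region, in limma 3.58.1 (R 4.3.3), with lmFit, eBayes and two-sided contrasts. The first was the mean of the 2 head arrays minus that of the 7 others, the second hindlimb minus shoulder and forelimb. P-values were adjusted by Benjamini-Hochberg over 22180 genes, with a threshold of 0.05 and 6 residual degrees of freedom (10.4 after moderation). Each adjusted p without a named setting is of this fit. The procedure was tested on simulated data, with added differences larger than those of the members and no effect of the value range. That test does not show how often differences as small as theirs would be found.

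Genes named are the members, genes of the lists, and the 3 genes with the highest correlation to a member whose range over the arrays was at least 1. Predicted genes and microRNAs were left out of those. A list's summed level is the log2 of the sum of its linear values. The members, lists and yardstick were chosen with earlier results of these data known. Alternatives were 3 normalizations, a filter on dim genes, averaged probe sets, a robust fit with variance trend, other models and region weights, the trapezius counted with the head, a slow fibre covariate, the value range as a term or only the arrays of wider range, and each array left out. A shift by the chemoreceptor median and the use of only the arrays of narrower range were added after seeing the data.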

Additional observations from a re-analysis of the deposited data

How the results depend on the processing

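Between head and trunk and limb muscles no member was called, and none changed direction, under any of the 22 alternative settings (21 for Tcf21 and Isl1, which the filter on dim genes removes). The lowest adjusted p of any member over these settings was 0.258. With 1 array left out, the difference ran from -0.82 to -0.56 for Pitx1, 0.01 to 0.31 for Pitx3, -0.49 to -0.32 for Msc, -0.36 to -0.26 for Tcf21, -0.33 to -0.06 for Isl1 and 0.00 to 1.05 for Lhx2. Pitx1 was widest at -0.97 with the slow fibre covariate, and Lhx2 was 0.12 with the trapezius counted with the head muscles. Tcf21 was -0.17 with the value range as a term.

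Genes called between head and trunk and limb muscles numbered 0 in either direction. They were 2 lower with quantile normalization, 1 higher and 2 lower with cyclic loess, and 1 lower with the trapezius counted with the head. With 1 array left out, 0 to 3 were higher, the most without digastric, and 0 to 5 lower, the most without soleus. The cause was not tested.

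Between hindlimb and shoulder and forelimb muscles no member was called under any setting that allowed a test, which the use of only the arrays of narrower range did not, and small differences there changed sign, for a cause that was not tested. Lhx2 was -0.064 with the trapezius counted with the head and -0.21 among the arrays of narrower range. Pitx1 was 0.065 with the slow fibre covariate, 0.0068 with the shift by the chemoreceptor median and 0.29 among the arrays of narrower range. Isl1 was -0.032 among the arrays of wider range. With 1 array left out, Pitx1 ran from -0.29 to 0.27 (0.031 without tibialis anterior), Lhx2 from -0.064 to 0.42 and Tcf21 from -0.13 to 0.043 (0.033 without soleus). No paired analysis was possible because each muscle had 1 array and the labels do not identify animals.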

Other observations

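Of the listed regulators, some had their highest value in a single trunk or limb muscle. These were picked after their values were seen. Barx2, a homeobox gene of muscle and other tissues, was at 5.60 in soleus and from 3.61 to 4.80 on the other 8 arrays. Meox1, a somite homeobox gene, was at 5.23 in soleus and from 3.87 to 4.59 elsewhere. Prrx1, a homeobox gene of limb and head mesenchyme, was at 7.67 in soleus and from 6.00 to 7.17 elsewhere. Twist1, a helix-loop-helix factor of mesenchyme, was at 5.32 in trapezius and from 4.14 to 4.84 elsewhere. With 1 array per muscle these values have no replicate.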
